A study of Mus musculus with 563 samples.

Results

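The cells described here are old hematopoietic stem cells (HSCs) from mouse bone marrow with high or low RNA of the MHC class II genes H2-Aa, H2-Ab1, H2-Eb1 and Cd74. Every mouse carried the Gfp-Lc3 transgene, which joins green fluorescent protein to the autophagosome protein LC3, and cells were taken at steady state and sorted singly into wells. The labels give the age as old or young without a number, divide the old cells into groups called oHSC_LO, oHSC_MID and oHSC_HI (LO, MID and HI below), and name no animal. They say neither what the 3 names rank nor which promoter drives the transgene, and the counts came in 2 tables, so the old cells form 6 sets of 1 group in 1 table. Of 563 sequenced cells 533 were kept, 399 old and the rest young (yHSC), after cells under 50000 nuclear gene reads, under 1000 nuclear genes or above 20% mitochondrial reads were left out.

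Each cell was given a class II score, the summed CPM of the 4 genes, where CPM is reads per 1000000 nuclear gene reads of that cell. The old cells of each set were ranked by the score and split into 3 parts of near equal size. This gave 130 class II high cells, 130 class II low cells and the middle cells between them, and the 4 genes were left out of everything compared afterwards. Because the cells were picked by measured values, and because each sample is 1 cell with no animal named, nothing below was tested. Every difference between high and low cells is a description of these cells, shown beside its values in the 6 sets, which share mice and plates to an unknown degree.

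MHC class II molecules carry peptides from endosomes to the surface, where CD4 T cells read them. H2-Aa and H2-Ab1 encode the alpha and beta chains of one such molecule, H2-Eb1 the beta chain of another, and Cd74 the invariant chain that fills the groove during transport. H2-DM, built from H2-DMa with H2-DMb1 or H2-DMb2, helps exchange the invariant chain's fragment for peptide, H2-O (H2-Oa, H2-Ob) restrains H2-DM, and cathepsins such as Ctss cut the invariant chain. Transcription is driven by the coactivator Ciita, which sits on factors bound to short elements upstream of these genes: the RFX complex on the X box and NF-Y on the Y box. Dendritic cells, B cells and macrophages are the classic class II positive cells, and class II is also known on HSCs.

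The upstream letters are shown first because the class II score genes and some of their partners carry the same short elements. RefSeq start-site windows on GRCm38.p6 were found for 2 of the 4 score genes and 13 of the 17 listed symbols of class II partners. The 17 list March1 also as Marchf1 and March8 also as Marchf8. The 120 bases before the start are given for H2-Aa, at chr17:34287824-34287943 on the minus strand, and for H2-Eb1, at chr17:34305747-34305866 on the plus strand. Capitals mark a core of the X box (GNAAC) and the Y box (TGATTGG).
H2-Aa: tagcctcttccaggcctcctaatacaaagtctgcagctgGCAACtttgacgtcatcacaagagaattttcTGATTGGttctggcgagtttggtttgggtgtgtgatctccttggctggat
H2-Eb1: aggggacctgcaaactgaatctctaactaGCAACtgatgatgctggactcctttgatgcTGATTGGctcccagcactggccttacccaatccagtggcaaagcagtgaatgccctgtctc

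The Y box letters recurred before 5 of the 13 partners with a window. For these the 30 bases that end with the Y box are given, to be read against the same stretch of the 2 score genes above, with the Y box in capitals. They lie on the plus strand at chr17:34153105-34153134 for H2-DMb1, chr17:34145134-34145163 for H2-DMb2, chr17:34092311-34092340 for H2-Oa, chr17:34238823-34238852 for H2-Ob and chr17:34325550-34325579 for H2-Eb2.
H2-DMb1: tgatgctaggctgattcactcagTGATTGG
H2-DMb2: tgatgctaggctaagtcacttagTGATTGG
H2-Oa: cccattatctcagagaactgctcTGATTGG
H2-Ob: aaatgatgcaaagtcttcgctctTGATTGG
H2-Eb2: atgctgctggtgctcttggctgcTGATTGG

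The pair of an X box core with a Y box at most 40 bases further on, on the same strand, stood before both score genes and before 4 of the partners: H2-DMb1, H2-Oa, H2-Ob and H2-Eb2. In these 6 genes 23 to 26 bases lay between the elements. Over all 32851 windows, searched on both strands through the 250 bases before the start, 0.916% held the pair, 7.23% the Y box and 79.6% the short X core. The search letters were chosen after the sequences had been viewed, and a match is a match of letters only. Of the 16 class I and peptide loading genes with a window, 8 held the Y box and none the pair. Of the 10 regulators with a window, 3 held the Y box and 1, Rfx5, the pair.

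The score spanned several orders of magnitude within each set. Its median in high cells was 2922 and 2235 in the LO sets of the first and second table, 3359 and 3255 in MID, and 2914 and 1855 in HI. In low cells the medians were 132.2 and 21.8 in LO, 149 and 68.9 in MID, and 136.6 and 51.9 in HI. The parts meet without a gap: the lowest high cell of the first LO set had a score of 1562 and the highest middle cell 1552, and in the second HI set these were 908 and 883. At the other edge the lowest middle cell and the highest low cell stood at 407 and 352 in the first LO set and at 212 and 168 in the second HI set. Of all 399 old cells, 14 had no read of any of the 4 genes. The median score was 835 in old cells and 78.1 in young cells, of which 25 had no such read.

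**Figure D1:**
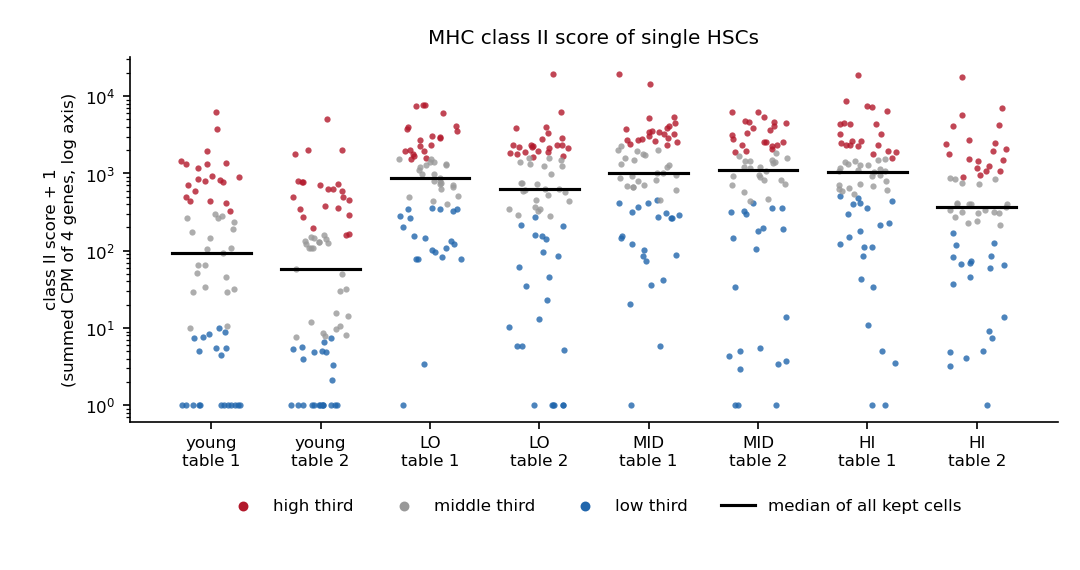
Class II score plus 1 (summed CPM of H2-Aa, H2-Ab1, H2-Eb1 and Cd74, log axis) of every kept cell, by group and count table, coloured by the part of its set (young cells split the same way) and with a bar at the median. The scores run on without a gap from low to high cells, and the medians of the 6 old sets all lie above those of the 2 young sets.

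The 4 score genes moved together from cell to cell, as far as single-cell counts show it. Over the 399 old cells Spearman's rho between pairs of them ran from 0.50 to 0.61, across cells that share library preparation and differ in depth. Cd74, on chromosome 18, had a mean of 2043 CPM in high, 354 in middle and 45.7 in low cells. H2-Ab1, on chromosome 17, had 730 (high), 281 (middle) and 47.5 (low). H2-Aa, its neighbour, stood at 655, 190 and 31.2 CPM, and H2-Eb1 at 337, 95.4 and 10.4. To compare detection at one depth, each cell with enough reads was thinned to 100000 nuclear gene reads, which kept 373 of the 399. H2-Aa was then read in 95.9% of high cells (exact 95% interval 90.7 to 98.7%) and in 27.05% of low cells (19.4 to 35.8%), against 95.4% and 33.1% before thinning. All 4 genes were read in 41.8% of thinned old cells and in 5.47% of thinned young cells. These values chose the cells or follow from that choice. Intervals on shares of cells cover counting error alone. Intervals on numbers of reads are too narrow even for that, since reads carry no molecular identifiers and cluster in single cells.

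A size rule was used to name genes outside the score. Reads were summed over the high and over the low cells of each set, scaled with TMM factors and compared as log2 of CPM plus 1, high minus low, and the 6 differences were averaged within and then over tables. A gene met the rule with an averaged difference of at least 1 in size, at least 0.58 with the same sign in each table, the same sign in at least 5 of the 6 sets, a level of 20 CPM and reads in 20% of cells on the higher side, and at most 20% of that side's reads in a single cell. Of 10706 genes above a level filter of 10 CPM and reads in 10% of cells, 41 (0.383%) met it as higher in high cells and 72 (0.673%) as lower. The median over all these genes was -0.01. Differences with 1 sign in all 6 sets were more common, at 244 genes higher (2.28%) and 258 lower (2.41%). The values of a single gene in 1 set rest on 20 to 23 cells a side and scatter widely, as the plot of the highest and lowest genes shows.

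**Figure D2:**
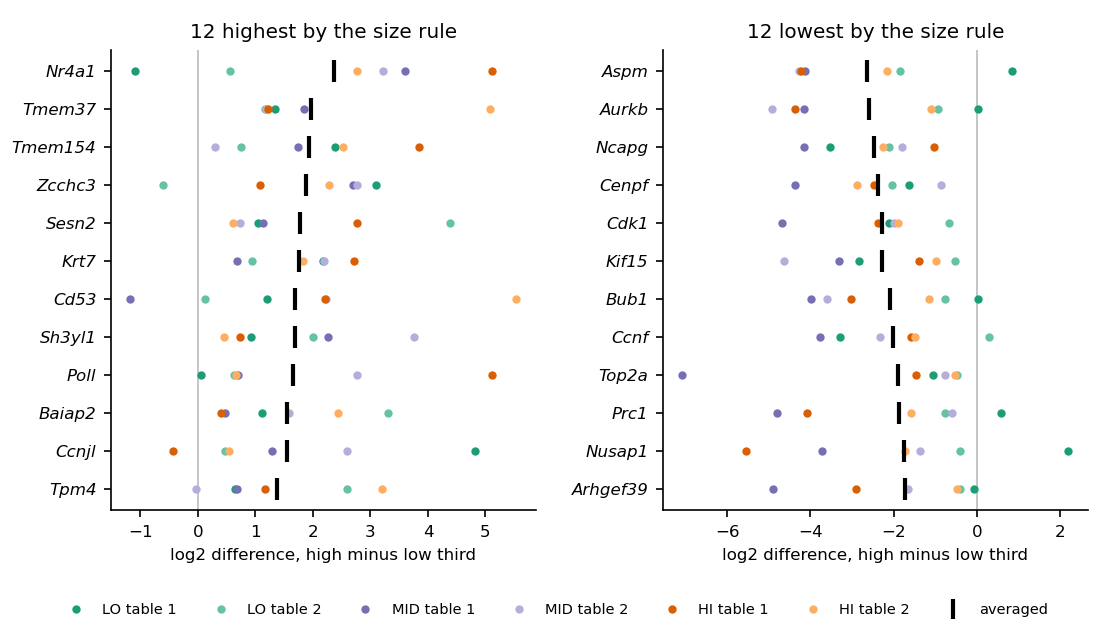
Log2 differences (high minus low cells) of the 12 highest and 12 lowest genes by the size rule, with a point for each of the 6 sets and a bar at the average. The 6 points of each gene spread over more than 2 log2 units, and Nr4a1, Cd53, Zcchc3, Ccnjl and Tpm4 on the left and Nusap1, Prc1, Aspm, Ccnf, Aurkb and Bub1 on the right each have 1 set on the other side of 0.

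Among the class II partners the 2 genes of H2-DM with ample reads were higher in class II high cells. H2-DMb1 (chromosome 17, 34153072 to 34160230) was the only partner that met the size rule. It stood at 135.7 and 72.9 CPM in the high cells of LO, 105.8 and 113.3 in MID, and 131.1 and 136.3 in HI, each pair giving the first table and then the second. In the low cells it stood at 45.1 and 64.2 in LO, 77.97 and 57.1 in MID, and 57.98 and 39.5 in HI. The high value exceeded the low value in all 6 sets, and the ranges overlapped only through the second LO set, whose high value of 72.9 lay under the 77.97 of the low MID cells. Its averaged difference was 1.01, with 1.06 in the first and 0.97 in the second table, and middle cells lay between at a mean of 79.3 CPM. Over 23 other settings of the analysis its difference ranged from 0.70 to 1.17 and met the rule in 14. Thinned cells with a read made up 72.1% of high, 65.1% of middle and 59.02% of low cells.

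H2-DMa, the alpha chain, ranged from 214 to 404 CPM in high cells and from 106.6 to 259 in low cells. It was higher in 5 of 6 sets, and the second HI set went the other way with 226 against 259 CPM. Its averaged difference of 0.79 stayed under the bound of 1. H2-DMa was read in 92.6% of thinned high cells (86.5 to 96.6%) and 77.9% of low cells (69.5 to 84.9%), with 85.3% in the middle. Its gene body overlaps Brd2 on the opposite strand, which differed by 0.07, and how the counting assigned reads in shared stretches is not given in the sources used here.

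H2-DMb2, the second beta chain gene, lay under the level filter and so could not meet the rule. It had 382 reads (exact Poisson interval 345 to 422) in all high cells, 184 in middle cells and 14 (7.65 to 23.5) in low cells. The high value was above the low value in all 6 sets, from 1.08 against 0.167 CPM in the first LO set to 17.7 against 0.674 in the first HI set. A single cell held 20.4% of the reads in high cells, and 13.9% of thinned high cells had a read against 2.46% of low cells. H2-DMb1 and H2-DMb2 are near-identical neighbours, so reads of one may have been counted for the other.

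Ctss, which encodes the cathepsin that makes the last cuts in the invariant chain, was also under the filter, at a mean of 15.8 CPM in high and 3.86 in low cells. It was higher in all 6 sets, though in the second MID set only by 6.178 against 6.169 CPM. It was read in only 9.02% of thinned high, 8.53% of middle and 3.28% of low cells, and 1 cell held 23.3% of the reads in high cells. The other partners showed smaller or mixed values. H2-Oa, a chain of H2-O, was higher in 5 of 6 sets by 0.37, H2-Ob differed by -0.41 from few reads, March8, which sends class II for degradation, by 0.41, Ctsl by 0.25, Ifi30 by -0.24 and Sppl2a by -0.26. Over the 7 partners above the filter the median was 0.37, with set medians from -0.25 to 0.83. In young cells split the same way the partners' median was 0.39, H2-DMb1 differed by 0.59 and H2-DMa by 0.07.

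The regulators of class II did not show a shared direction. Ciita, the coactivator, is scarcely read: it had 511 reads in high, 89 in middle and 214 in low cells. The high value was above the low value in 4 of 6 sets, from 29.97 against 5.12 CPM in the second MID set to 3.67 against 16.4 in the second HI set. Ciita was read in 21.3% of thinned high cells (14.4 to 29.6%), 6.20% of middle cells (2.72 to 11.9%) and 9.84% of low cells (5.19 to 16.6%), so the middle cells did not lie between the other two. Over the 11 regulators above the filter the median was 0.05. Rfx5, the DNA-binding subunit of RFX, was lower in high cells by 0.61 and in 5 of 6 sets. Spi1 (PU.1), a myeloid and B cell transcription factor that acts on Ciita, was higher by 0.75 and in 5 of 6 sets, with 0.11 in the first and 1.38 in the second table. The NF-Y genes Nfya, Nfyb and Nfyc differed by -0.15, 0.14 and -0.11, and none of the 14 regulators met the size rule.

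MHC class I genes, which encode the molecules that show cytosolic peptides to CD8 T cells, were higher in class II high cells by small amounts in set after set. None of the 19 class I and peptide loading genes met the size rule. Yet 5 of the 19 (26.3%) were higher in all 6 sets, against 2.28% of all genes above the filter. These 5 are strongly read, from 461 CPM (Psmb8) to 3668 (H2-D1) in high cells, while that share covers genes from 10 CPM up. The set medians of the list were all above 0, from 0.04 to 0.41, with an overall median of 0.19. Those of the HSC identity list were also all above 0. Middle cells were level with low cells, with a median difference of 0.0005. B2m, the light chain of class I, differed by 0.32, with 1923 to 2307 CPM in high cells and 1653 to 1852 in low cells. These ranges did not overlap, which held for 0.112% of all genes above the filter in this direction. The heavy chain genes H2-D1 and H2-K1 differed by 0.23 each. Tapbp, which holds class I to the peptide transporter, differed by 0.27.

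Psmb8, a subunit of the immunoproteasome that cuts peptides for class I, had the highest difference of these 5. It ranged from 417 to 521 CPM in high cells and from 278 to 423 in low cells, a difference of 0.40, and was higher in all 6 sets. Class I genes are close copies of each other, and reads may have been shared among them. In young cells the list's median was 0.09.

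**Figure D3:**
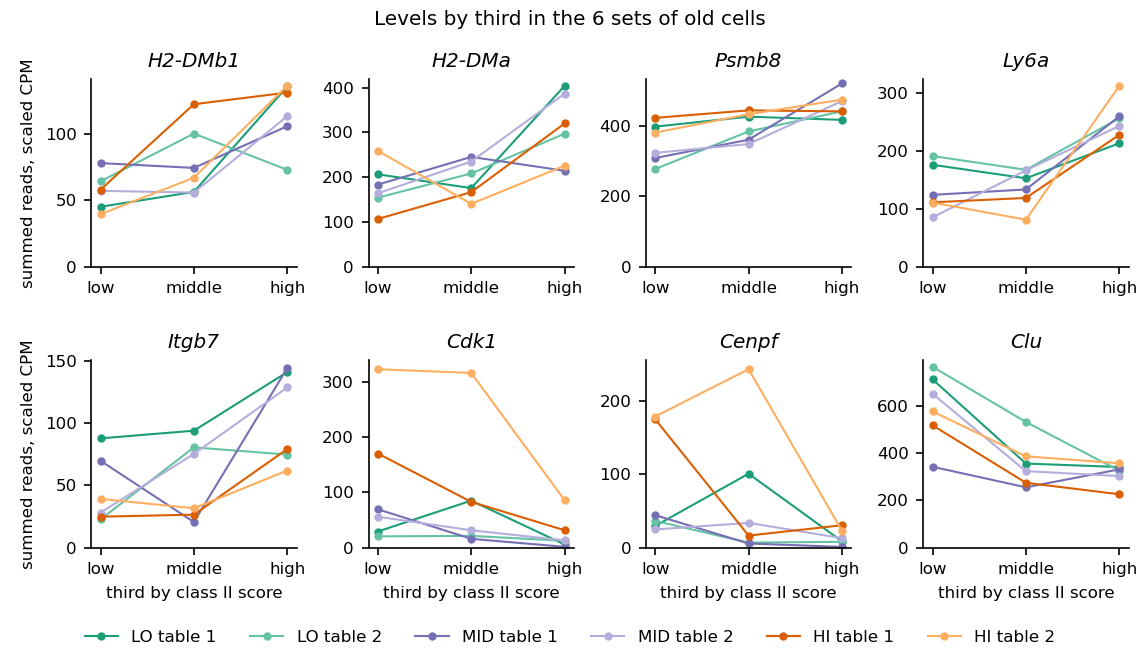
Levels in CPM (sums of reads scaled with TMM factors) of 8 genes in the low, middle and high cells of each of the 6 old sets. H2-DMb1, Psmb8, Ly6a and Itgb7 end higher in high cells than in low cells in every set, Cdk1, Cenpf and Clu end lower in every set, and H2-DMa ends lower in the second HI set alone.

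Several genes of surface and immune signalling were higher in all 6 sets as well. Ly6a, which encodes the stem cell antigen Sca-1, stood at 213 and 256 CPM in high cells of LO, 259 and 243 in MID, and 227 and 312 in HI. In low cells it stood at 176 and 191 in LO, 123.8 and 84.9 in MID, and 110.9 and 110.5 in HI. All 6 high values were above all 6 low values, as for 0.112% of all genes above the filter. The averaged difference was 0.96, just under the bound. Middle cells, at a mean of 136.33 CPM, were close to the low cells at 132.8. In young cells Ly6a differed by 0.70.

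Itgb7, the integrin beta 7 chain that guides homing to gut tissue, met the rule with 1.30 and was higher in all 6 sets, with 61.9 to 143.98 CPM in high and 22.8 to 87.7 in low cells. Dusp2, a nuclear phosphatase that acts on MAP kinases, met it with 1.15, from 73.6 to 201 CPM in high and 22.1 to 168 in low cells, and was also higher in all 6 sets. Ltb, encoding lymphotoxin beta, was higher in all 6 sets by 1.09 but failed the limit on single cells, since 1 cell held 20.97% of the reads in high cells. Itgb7, Dusp2 and Ltb were singled out after their values were seen. In young cells Itgb7 differed by -0.04, Dusp2 by 0.22 and Ltb by 0.70.

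Genes whose 6 high values all lay above the 6 low values numbered 12 of 10706 (0.112%), and those with all 6 below 20 (0.187%). Whether unrelated values would give as many was not tested, so a place among the 12 or the 20 is not evidence for a gene. Ly6a and B2m were 2 of the 12. The others with a gene name and a known immune role were Nmi, a partner of STAT proteins that interferon induces, with 0.80, Tyk2, a kinase of interferon and cytokine receptors, with 0.60, and Napsa, an aspartic protease of late endosomes, with 0.64. These 3, and the genes named on the lower side, were picked after their values were seen. The other genes of the 12 with a gene name were Ankrd44, Aph1c, Golph3, Gpx1 and Znrd1. Tyk2 overlaps an antisense gene model. None of the 12 met the size rule. On the lower side Tamm41, an enzyme of cardiolipin synthesis, with -1.24, and Pip4p2, a phosphoinositide phosphatase, with -1.04, were among those that did. Xaf1, a proapoptotic interferon target, was also among the 20 but did not meet the rule, with -0.52. It ranged from 22.9 to 33.98 CPM in high and from 35.7 to 45.9 in low cells. Interferon-linked genes thus stood on both sides.

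Interferon gamma response genes leaned higher in class II high cells. Over the 16 interferon gamma genes above the filter the median was 0.25, against -0.01 over all genes. Of the 16, 13 were higher, but only 7 in both tables, and 0 were lower in both. The set medians, from -0.10 to 0.75, were positive in 5 of 6 sets. Middle cells lay under the low cells, with a median difference of -0.22, so the order was not a steady one. No gene was higher in all 6 sets or met the rule. Over 23 other settings the median ranged from 0.14 to 0.51. Over the 15 type I interferon genes it was 0.03. In that list Bst2 (tetherin, a membrane protein that holds budding virus) was higher in all 6 sets by 0.67 and Xaf1, a proapoptotic interferon target, was lower in all 6 by 0.52 (high 27.6, low 40.0 CPM). Among costimulatory and coinhibitory genes, which antigen presenting cells use beside class II, 3 of the 9 above the filter were higher and 6 lower, with a median of -0.09 and none meeting the rule. In the NF-kappaB and inflammation list, with a median of 0.09 over 16 genes, Nfkbia, an NF-kappaB inhibitor, was higher in all 6 sets by 0.59 and Il1r1, an interleukin 1 receptor, lower in all 6 by 0.87 (high 13.6, low 23.5 CPM).

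The largest shift of any list was in genes of G2 and mitosis, which were lower in class II high cells. All 29 genes of the list above the filter had a negative averaged difference, 25 of them in both tables, with a median of -2.08 (-2.67 in the first and -1.45 in the second table). By the size rule 7 of the 29 (24.1%) were lower, against 0.673% of all genes, and 6 (20.7%) were lower in all 6 sets, against 2.41% of all genes. Many of these genes are read in the same cells, so the 29 are not separate observations. At least 8 of them were read in only 11 thinned high and 19 thinned low cells. Cdk1, the kinase that starts mitosis, stood at 5.96 and 12.6 CPM in high cells of LO, 1.74 and 13.4 in MID, and 31.7 and 85.8 in HI. In low cells it stood at 29.4 and 20.7 in LO, 69.5 and 56.05 in MID, and 170 and 322 in HI. The ranges overlapped across groups, as HI cells were high throughout, but within each set the high cells had less, with an averaged difference of -2.29.

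Cenpf, a kinetochore protein, ranged from 1.22 to 30.7 CPM in high and from 24.9 to 179 in low cells and differed by -2.38. Top2a, the topoisomerase that untangles sister DNA, differed by -1.90, with 0.347 against 180 CPM in the first MID set and 411 against 594 in the second HI set. Ncapg, a condensin subunit, differed by -2.48 and Kif15, a spindle kinesin, by -2.29, both lower in all 6 sets and both outside the list. Ncapg overlaps Lcorl on the opposite strand, which was also lower in all 6 sets, by 0.92 (high 17.2, low 33.3 CPM). Aspm, a spindle pole protein outside the list, had the lowest difference of all genes meeting the rule at -2.64, and Aurkb, the kinase of the chromosomal passenger complex, -2.58. Bub1 (-2.08), Prc1 (-1.88), Nusap1 (-1.76) and the cyclin F gene Ccnf (-2.03) completed the dividing-cell genes among the 12 lowest, each lower in 5 of 6 sets. Over 23 other settings Cdk1 and Cenpf met the rule in 19 each, Ccnf and Aspm in 12, Nusap1 and Aurkb in 11, Bub1 in 10 and Prc1 in 9. Mki67, a widely used marker of dividing cells, differed by -1.02 with a spread (SD over the 6 sets) of 2.72 and was lower in 4 of 6 sets.

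The set medians of the G2 and M list were not alike. They were -4.36 and -2.10 in the MID sets and -2.95 and -1.66 in the HI sets, but -0.22 and 0.01 in the LO sets. In the first MID set at least 8 of these genes were read in 0 of 21 thinned high and 3 of 20 thinned low cells. Genes of S phase did not follow: the median over 28 was -0.10, and 10 were higher and 18 lower. Mcm5 and Pcna, which serve DNA replication and were picked after their values were seen, differed by 0.04 and 0.08. Cdk6, a kinase of G1, differed by -0.14.

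Counted as cells, the order of the parts was not a steady one. After thinning, at least 8 G2 and M genes were read in 11 high cells (9.02%, 4.59 to 15.6%), in 27 middle cells (20.9%, 14.3 to 28.97%) and in 19 low cells (15.6%, 9.64 to 23.2%). The middle cells held the most, and the intervals of high and low cells overlapped. Without thinning the shares were 10.8%, 23.02% and 21.5%. By group the high, middle and low counts were 1 of 39, 3 of 44 and 1 of 40 in LO, 1 of 43, 5 of 43 and 4 of 41 in MID, and 9 of 40, 19 of 42 and 14 of 41 in HI. Fewer such cells and less of these RNAs per cell cannot be told apart in the sums. Looked at from the other side, HI cells with at least 8 of these genes read had a median score of 401 and the other HI cells 846, but within tables the medians were 1150 against 1012 and 365 against 338. The pooled difference in HI therefore turned around within each table, as the second table held both more such cells and lower scores.

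With these cells left out and the parts drawn anew, the median of the G2 and M list was -0.17, that of Cdk1 -0.83 and that of Cenpf -1.18. The cells left out were picked by reading at least 8 genes of this list, so a smaller shift follows from the choice. The differences of H2-DMb1, Ly6a and Psmb8 were 0.97, 0.90 and 0.54 in the cells that remained. In young cells, the median of the G2 and M list was 0.38 (0.66 and -0.03 in the 2 tables), and at least 8 of its genes were read in 5 of 42 high, 9 of 44 middle and 6 of 42 low cells. The difference between old and young was not tested.

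**Figure D4:**
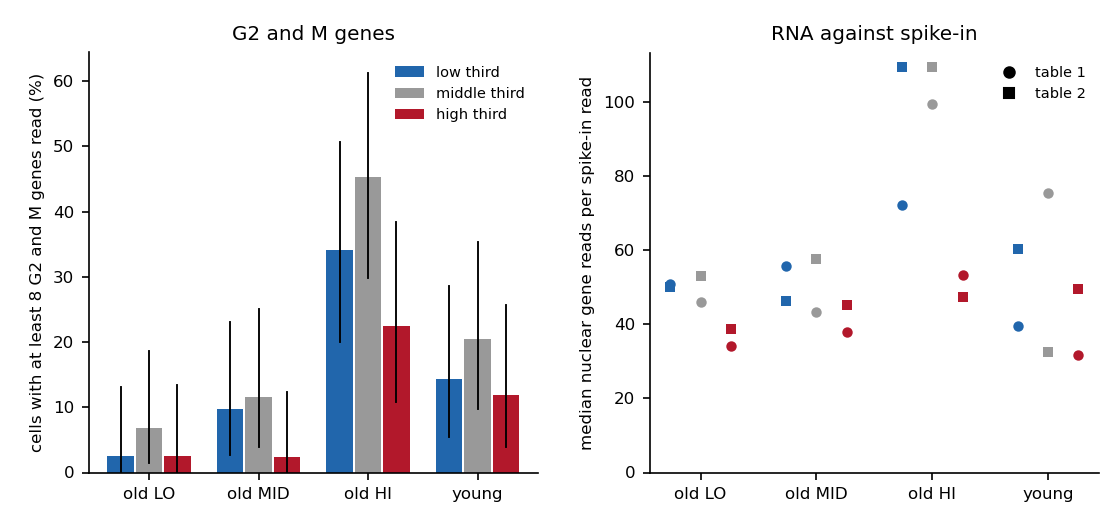
Left, share of thinned cells with at least 8 G2 and M genes read, by group and part, with exact 95% intervals (counting error only). Right, median nuclear gene reads per spike-in read of each part in each table. Middle cells have the highest share in every group, and high cells lie below low cells on the right in all 6 old sets, by as little as 45.2 against 46.2 in the second MID set.

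RNA content was lowest in the class II high cells, without a steady order from low to high. Nuclear gene reads per spike-in read, a proxy for RNA per cell, had a median of 34.05 and 38.8 in high cells of LO, 37.9 and 45.2 in MID, and 53.2 and 47.3 in HI. In low cells it was 50.9 and 49.99 in LO, 55.8 and 46.2 in MID, and 72.3 and 109.3 in HI. In middle cells it was 45.99 and 52.97 in LO, 43.2 and 57.6 in MID, and 99.4 and 109.4 in HI, above the low cells in 4 of 6 sets. High cells were lower than low cells in all 6 sets, and their median gene number was 7752.5 against 8302 in low cells. Cells with at least 8 G2 and M genes read had more reads per spike-in read in every group, for example 107.2 against 55.4 in HI. The part of RNA content in the differences above was not tested. When cells were ranked instead by class II reads per spike-in read, an alternative added once the data had been seen, 43 genes met the rule as higher and 25 as lower. Of the 41 and 72 genes above, 16 and 11 were among them, and the G2 and M median was -0.71.

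Stem cell identity genes differed little between high and low cells. Over the 25 listed genes the median was 0.03 and none met the rule. Kit, the stem cell factor receptor, was read in every thinned cell and differed by -0.11. Procr, a surface marker of HSCs, differed by 0.30 in 4 of 6 sets, and Hlf, a transcription factor of HSCs, by 0.39 in 5 of 6. Ifitm3 was, with Ly6a, the only listed gene higher in all 6 sets, by 0.29. Of the 8 listed genes of multipotent progenitors, 4 passed the filter, with a median of 0.17, and none met the rule. Cd27, a receptor of the TNF family, was higher by 0.46 and in 5 of 6 sets, at 408 against 304 CPM. Plac8 differed by 0.10 and Cd34 by 0.24. Flt3, a cytokine receptor, was the only one lower in high cells, by 1.19 and in 5 of 6 sets, at 7.84 against 16.8 CPM.

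Genes that mark old HSCs leaned lower in class II high cells. The list holds genes known to be raised in old HSCs and was drawn up with earlier results of these data known, so its direction is not independent evidence. Its median over 26 genes was -0.27, with -0.07 in the first and -0.48 in the second table, and 21 of 26 had a negative averaged difference, 11 of them in both tables. Clu, the secreted chaperone clusterin, was lower in all 6 sets: high cells ranged from 226 to 357 CPM and low cells from 342 to 764, and the first MID set, with 331 against 342, had the smallest gap. Its averaged difference was -0.89. Zg16, a lectin-like secretory protein, met the rule with -1.23 and was lower in all 6 sets, at a mean of 28.6 against 70.9 CPM.

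Platelet-linked genes gave mixed values. Vwf, which carries platelets to vessel walls, differed by -0.48 (-0.18 and -0.79) and was lower in 4 of 6 sets, and Selp, an adhesion protein of platelets, by -0.35. Gp5, a subunit of a platelet receptor for von Willebrand factor, was higher in 4 of 6 sets by 1.02 (2.25 and -0.21), and Clec1b, a platelet lectin receptor, in 3 of 6 by 0.91. Over the 18 platelet and megakaryocyte genes the median was -0.12. In young cells Clu differed by -0.30, Zg16 by -0.95 and Vwf by -1.36.

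**Figure D5:**
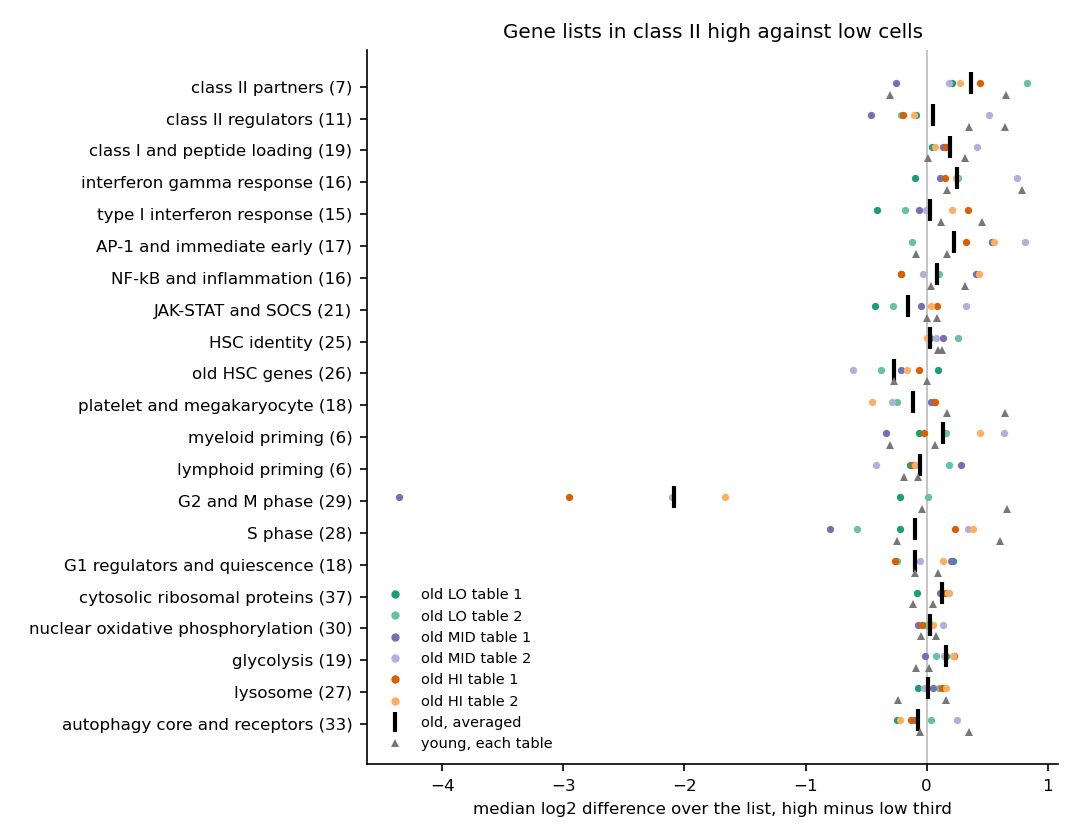
Median log2 difference (high minus low cells) over the genes of each list above the level filter (their number in brackets), with a point for each of the 6 old sets, a bar for the median of averaged differences and triangles for the 2 young sets. The G2 and M list stands apart at -2.08 with LO sets near 0. Class I genes and HSC identity genes lie above 0 in all 6 sets, and most other lists lie within 0.5 of 0.

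Of the 12 genes with the highest difference, 7 were higher in all 6 sets: Tmem37 (1.97), Tmem154 (1.93), Sesn2 (1.78), Krt7 (1.76), Sh3yl1 (1.69), Poll (1.66) and Baiap2 (1.55). Krt7, an epithelial keratin, ranged from 22.7 to 48.8 CPM in high and from 4.2 to 29.9 in low cells, and met the rule in 22 of 23 other settings of the analysis, Tmem154 in 21. Sesn2, a stress protein that restrains mTORC1, and Ddit3 (CHOP), a transcription factor of the integrated stress response, went opposite ways: Ddit3 was lower in all 6 sets by 1.51, with 17.2 against 46.4 CPM. Ddit3 overlaps Mars on the opposite strand, which differed by 0.16. Over the 18 genes of the stress list the median was 0.02.

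Nr4a1, an immediate early nuclear receptor, had the highest difference of all, 2.36, but in the first LO set it was lower, at 5.42 against 12.7 CPM, and it met the rule in 12 of 23 other settings. The remaining 4 of the 12, Zcchc3 (1.89), Cd53 (1.69), Ccnjl (1.55) and Tpm4 (1.38), were each higher in 5 of 6 sets. Over the 17 immediate early genes the median was 0.23, and Egr1 differed by 0.80 while Fos differed by -0.42. The middle cells lay between high and low cells for 35 of the 41 genes higher by the rule and for 61 of the 72 lower. These genes were chosen by a wide gap between high and low cells, so a middle value inside the gap is likely from the choice alone. It does not show a graded change with the score.

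Ribosomal protein genes were higher by very small amounts: 31 of 37 had a positive averaged difference and 8 (21.6%) were higher in all 6 sets, against 2.28% of all genes, with a median of 0.13. Rpl37, the highest of those 8, was at 65.2 CPM in high and 54.8 in low cells. Many of these genes have processed copies in the genome, and how reads shared with them were counted is not given in the sources used here. Glycolysis genes had a median of 0.16, nuclear genes of oxidative phosphorylation 0.03, lysosomal genes 0.01 and autophagy genes -0.07. Map1lc3b, the native counterpart of the reporter, differed by 0.06.

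The reporter transgene did not follow the score in these sums. The eGFP entry was higher in high cells in 3 of 6 sets, with an average difference of -0.01, and the rat Map1lc3b entry differed by -0.06. Within HI both sets were lower in high cells, by 0.37 and 0.35 for eGFP, and within MID both were higher, by 0.14 and 0.45.

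Single markers of other class II positive cell types were read in many cells of both parts, for example Lyz2 in 95.1% of thinned high and low cells alike and Cd79b in 36.1% of each. Cells with several markers of a type were fewer. Their part in the differences was not tested. At least 3 of 12 conventional dendritic cell markers were read in 6 thinned high cells (4.92%) and 12 low cells (9.84%). Xcr1 and Cd209a were at 0 in all high cells, and Itgax, Xcr1 and Clec10a in all low cells. At least 3 of 14 B cell markers were read in 2 high and 2 low cells. Igkc, Vpreb3 and Igll1 were among those at 0 in the high cells and also in the low cells. At least 3 of 16 monocyte and macrophage markers were read in 10 high and 7 low cells. Adgre1, Fcgr1 and Cd300e were at 0 in the high cells, and Adgre1, C1qc and Cd300e in the low cells. Summed per set, the monocyte and macrophage markers ran from 293 to 538 CPM in high and from 384 to 480 in low cells. For B cell markers these ranges were 52.8 to 105.02 and 46.4 to 112.04.

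Summed levels of conventional dendritic cell markers ran from 31.5 to 93.6 CPM in high and from 35.8 to 99.02 in low cells. The 2 of them above the level filter went opposite ways: Clec9a was lower in high cells by 1.18 and in 5 of 6 sets, and Sirpa was higher by 0.42 and in 4 of 6. Of the macrophage markers Cd68 was higher in 3 of 6 sets, by 1.05 on average (43.8 against 18.5 CPM), and Lyz2 differed by -0.20. No thinned high or low cell had 3 or more markers of T and NK cells, neutrophils, mast cells and basophils or erythroid cells, for which the exact 95% interval ends at 2.98%. Plasmacytoid dendritic cell markers do not separate cell types here, because Tcf4, Runx2, Lair1 and Bst2 are read in most HSCs: 78.7% of high and 72.95% of low cells had at least 3.

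The sums of reads compared held from 5438777 to 8819520 reads, and kept old cells ranged from 50339 to 1064879 nuclear gene reads. Median depth was 270694 reads in high, 284398 in middle and 296012 in low cells. At least 20 Y-linked reads were found in 356 of 399 old cells and at least 20 Xist reads in 11, while young cells of the second table all carried Xist reads.

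Young cells were split by the same score within their 2 sets, as the closest group in the series. Their high cells had a median score of 719, which lies under the median of all old cells, and 25 of 44 low cells had no read of the 4 genes. Of 10544 genes, 0.996% met the rule as higher and 1.07% as lower, from 2 sets rather than 6. Arid5a, which encodes an RNA-binding protein, was the single gene that met it as higher in both ages, by 1.06 in old and 2.61 in young cells, and no gene met it as lower in both.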

How the data were processed

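Libraries of single cells were made by a variant of Smart-seq2, as the labels' protocols state, and the 2 tables that the authors deposited hold untransformed counts of reads for each gene, made with STAR 2.7.3a and featureCounts 2.0.0 on mm10, per the submitters' processing notes, which also name Subread and DESeq2. Each GEO sample is 1 cell. Nuclear genes took 21.8% and 24.4% of the reads of the 2 tables, and entries that name no gene (no feature, not aligned, ambiguous) were left out of all totals, as were 37 mitochondrial and 92 spike-in entries. Filters left out 30 cells.

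Reads were summed over high and over low cells of each set, scaled with TMM factors (edgeR 4.0.16, R 4.3.3) and compared as log2 of CPM plus 1. Shares of cells with a read used cells thinned to 100000 reads (373 of 399 old cells), with exact Clopper-Pearson intervals, and reads carry exact Poisson intervals. No test was run, because cells of a group are not replicates. Scripts were tested on simulated data. Members and gene lists were chosen with earlier results of these data known. Named were the score genes, all class II partners and regulators, the 12 highest and 12 lowest genes by the size rule, up to 2 highest and 2 lowest of every other list, a few fixed genes, and genes that the text says were picked after their values were seen. Promoter sequences are from RefSeq, GRCm38.p6. A few named genes are not reported here. Of the alternatives, 20 were planned and 3 added after the data were seen.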

Additional observations from a re-analysis of the deposited data

Results flagged for a closer look

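Of the named genes, 151 passed the level filter at both ages, and 29 of them differed one way in all 6 old sets. In 9 of these 29 the 2 young sets both differed the other way. Other genes were not looked at for this, so no share over all genes stands beside the 9. Many of the genes were named for the size of their old difference, and 2 young sets can readily fall on the same side. Ctss, under the level filter, was also higher in all 6 old sets and lower in both young sets, with 2.09 in old and -1.06 in young cells. Its old high and low cells were nearly equal in the second MID set. The difference between old and young was not tested in any of them, and no group of 4 or more replicates exists. Young cells of the second table carried Xist reads, unlike most old cells, so age and sex cannot be told apart there. Values are log2 differences, high minus low. Among genes higher in old high cells, Tmem154 differed by 1.93 in old and -2.32 in young cells. Poll, a DNA polymerase of repair, differed by 1.66 in old and -0.75 in young cells. Baiap2, an adaptor of the actin skeleton, stood at 1.55 in old and -1.29 in young cells. Aldoc, a glycolytic aldolase, stood at 0.47 and -0.20, and Ctsa, a lysosomal carboxypeptidase, at 0.47 and -0.41. Among genes lower in old high cells, 3 serve cell division: Ncapg with -2.48 in old and 1.47 in young cells, Kif15 with -2.29 and 1.83, and Top2a with -1.90 and 1.23. Pfkp, a phosphofructokinase, differed by -0.40 in old and 0.33 in young cells.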

How the results depend on the processing

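The size rule named 0.383% of tested genes as higher and 0.673% as lower. A pseudocount of 10 CPM gave 0.084% and 0.177%, a level filter of 50 CPM and 25% of cells 0.134% and 0.229%, and a split at the median score 0.131% and 0.327%. The outer sixths of each set gave 1.01% and 1.5015%, the first table alone 1.41% and 1.82%, and the second 1.40% and 1.93%. Cd74 alone as the score gave 1.57% lower, leaving out LO cells 0.628% higher, leaving out MID cells 0.731% higher, leaving out cells with markers of mature types 1.19% lower, and ranking by spike-in reads 0.233% lower. Which genes met the rule moved more than their number: of the 41 higher and 72 lower genes, 8 and 20 met it with the split at the median, 9 and 20 in the outer sixths, and 18 and 27 in thinned cells. In the remaining settings both counts stayed within 1.5 times of the values above. The G2 and M median was -0.17 without cells reading 8 or more of its genes. Other list medians moved beyond the spread between sets as follows. Glycolysis was 0.035 with the split at the median, 0.057 with thinned cells and 0.052 without HI cells. The outer sixths gave 0.20 for HSC identity, 0.23 for lymphoid priming, 0.21 for G1 regulators, 0.17 for stress genes, -0.31 for sex-linked genes and 0.56 for erythroid cells. S phase was 0.56 with the score without Cd74 and -0.81 with Cd74 alone, which also gave 0.21 for HSC identity, 0.051 for TGF-beta and 0.046 for sex-linked genes. The first table gave 0.19 for erythroid genes, -0.23 for TGF-beta, -0.30 for sex-linked genes and 0.54 for plasmacytoid dendritic cells, and the second 0.14 for TGF-beta, 0.052 for sex-linked genes and -1.46 for conventional dendritic cells. NF-kappaB genes were 0.41 without MID cells. Ranking by spike-in reads gave 0.72 for class II partners, 0.082 for TGF-beta and -1.19 for conventional dendritic cells. Without cells reading 8 or more G2 and M genes, Aspm turned to 0.68, Prc1 to 0.26, Nusap1 to 0.031 and Arhgef39 to 0.90. The cause was not tested. Leaving out cells with 3 markers of any other type was not run, since it leaves 33 old cells. No paired analysis was possible because each sample is 1 cell and no number pairs cells.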
